A study of Rattus norvegicus with 16 samples.

Results

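The comparison set diet alone against separation alone: 4 brain libraries of male Wistar rats raised undisturbed and then fed a high fat diet (HFD) and 4 of rats separated from the dam as pups and then fed chow (ELS, for early-life stress). The libraries were taken by their labels, and these are 8 of the 16 libraries of the series. In the ELS group the pups had been removed for 3 h per day over 16 days starting on postnatal day 1. All animals were run on an elevated plus maze near postnatal day 57, before diets were assigned on postnatal day 60. The other 8 libraries, 4 of undisturbed rats on chow (control) and 4 of separated rats on the high fat diet (ELS-HFD), entered the same model, and their levels are given as background. HFD and ELS differ from each other in rearing and in diet at once, so a difference between them cannot be assigned to either exposure from this contrast. The design text names the amygdala, while the sample labels say brain and whole tissue lysate. The age at sampling, the litter, the dam and whether each library came from its own animal are not given in the sources used here, so p-values measure only the spread between these samples, which may be technical.

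The amygdala is a group of nuclei in the temporal lobe that attaches threat and reward value to sensory cues. Its basolateral part is built largely of cortex-like glutamatergic neurons and receives a dense cholinergic input from the basal forebrain, and its central part is built largely of striatum-like GABAergic neurons rich in neuropeptides. Maternal separation of rodent pups is used as a model of early adversity, and a high fat diet as a model of metabolic load. Myelin, the lipid-rich sheath laid down by oligodendrocytes, is still being formed in the forebrain of the adolescent and young adult rat.

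The 8 libraries held 11438086 to 23629824 counts, and 14208 of 15580 genes were abundant enough to be tested. Slc17a7, the vesicular glutamate transporter of cortex-like neurons, was abundant at 1766 ± 196 CPM, a count per library brought to a shared scale, in HFD and 1469 ± 322 in ELS (SD, n = 4 each). Transcripts of neighbouring structures were present too. The choroid plexus list, 19 tested markers of the epithelium that makes cerebrospinal fluid, stood at -2.10 in ELS 1 and -4.38 in ELS 2 against -0.447 to 2.03 in the other 6 libraries, as mean log2 CPM relative to all 16 libraries. Low levels were not limited to ELS: among the background libraries, ELS-HFD 1 stood at -4.52 and the others at -0.512 to 1.91. Over all genes, the median SD of log2 CPM was 0.138 among HFD libraries and 0.173 among ELS libraries, and 63.7% of genes had the larger SD in ELS. In bulk tissue, fewer cells of a type and less RNA per cell cannot be told apart. Library names end in the letter N or B, whose meaning is not given: 1 HFD library has N and 3 have B, and 3 ELS libraries have N and 1 has B.

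A single gene separated the groups past the threshold. Samd4a, which encodes an RNA-binding protein of the Smaug family that represses translation and promotes decay of its target messenger RNAs, was 1.62-fold higher in ELS. Its level was 10.3, 9.84, 10.1 and 11.0 CPM in the 4 HFD libraries and 16.5, 16.1, 18.4 and 15.5 CPM in the 4 ELS libraries. Every ELS library lay above every HFD library, and the lowest ELS value exceeded the highest HFD value by more than the SD of either group, 0.482 in HFD and 1.28 in ELS. The log2 fold, HFD minus ELS, was -0.69 ± 0.09 (SE), with an adjusted p of 0.0253 in edgeR's quasi-likelihood test with Benjamini-Hochberg adjustment over 14208 genes. DESeq2 gave an adjusted p of 1.01e-06 and also called this gene alone. Control libraries stood at 14.8, 15.4, 16.9 and 14.5 CPM, and ELS-HFD libraries at 9.96, 9.25, 11.8 and 9.28 CPM. The levels thus fell into a chow pair of groups and a high fat pair of groups without overlap. Among libraries named N, the HFD value was 10.3 CPM and the ELS values were 15.5 to 18.4 CPM, and among those named B the HFD values were 9.84 to 11.0 CPM and the ELS value was 16.1 CPM. With any 1 of the 8 libraries left out, the log2 fold stayed between -0.72 and -0.64 while the adjusted p lay between 0.0597 and 0.178. The call was also lost in the fit on the 8 libraries alone, with an adjusted p of 0.289, and with the letter as a covariate, with 0.104. Its paralog Samd4b was at 93.2 ± 10.8 CPM in HFD and 97.1 ± 6.69 CPM in ELS (SD, n = 4 each), a log2 fold of -0.06 ± 0.09, and the value was 0.01 without ELS 1 and ELS 2.

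The count of 1 gene was 0.00704% of the genes tested, and 0 genes passed as higher in HFD (0%). At an unadjusted p under 0.05, edgeR gave 552 genes (3.89%), 163 of them higher in HFD (1.15%) and 389 higher in ELS (2.74%), and DESeq2 gave 545. The signs of all genes were nearly balanced, with 6979 higher in HFD (49.1%) and 7229 higher in ELS (50.9%), and the median log2 fold was -0.0022. All 4 HFD libraries lay above all 4 ELS libraries for 121 genes (0.852%), and all 4 ELS libraries above all 4 HFD libraries for 216 genes (1.52%). With any 1 of the 8 libraries left out 0 genes passed, and 301 to 881 had an unadjusted p under 0.05, the fewest without ELS 3 and the most without ELS 1. Without ELS 1 and ELS 2 together, 173 of 14463 genes passed (1.2%), 30 higher in HFD (0.207%) and 143 higher in ELS (0.989%), Samd4a among them with an edgeR adjusted p of 0.0190, and without ELS 3 and ELS 4 none did. This division of the ELS libraries is not in the labels and matches their levels in these same data. The 173 genes are therefore no separate support for a difference between the groups. Every gene described from here on missed the threshold, with an adjusted p of 1.00 in edgeR, and is given for its values.

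**Figure D1:**
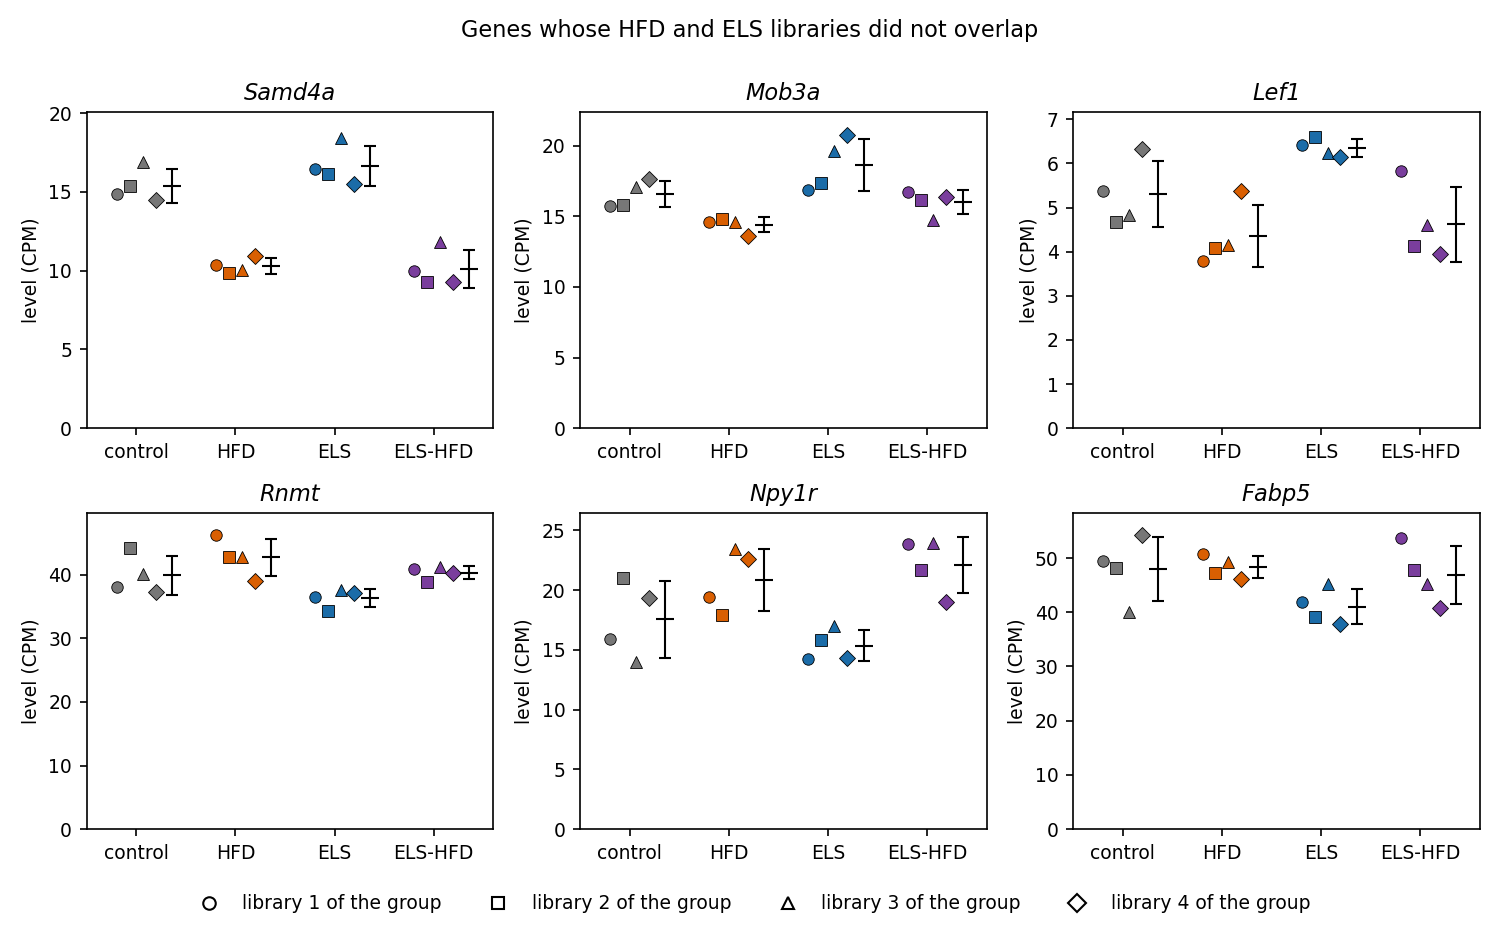
Levels in CPM (y axis, from 0) of 6 genes in each of the 16 libraries, by group (x axis). Symbols mark the library number within a group, and the bar with whiskers gives mean ± SD (n = 4). Samd4a, Mob3a and Lef1 were higher in all ELS libraries than in all HFD libraries, and Rnmt, Npy1r and Fabp5 were lower in all ELS libraries. Samd4a alone passed the threshold.

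Mob3a had the next smallest p among genes higher in ELS. It encodes a MOB family protein. Its level was 14.6, 14.8, 14.6 and 13.6 CPM in HFD and 16.9, 17.4, 19.6 and 20.8 CPM in ELS, with a log2 fold of -0.37 ± 0.08. The groups did not overlap, and the control mean of 16.6 ± 0.949 CPM lay between them (SD, n = 4). St6galnac3, a sialyltransferase that acts on gangliosides and glycoproteins, was at 16.2, 18.6, 18.1 and 16.9 CPM in HFD and 20.2, 20.5, 27.4 and 26.8 CPM in ELS. Here the spread came from ELS 3 and ELS 4: the log2 fold was -0.44 ± 0.11, and -0.23 without those libraries. Lzts2, a leucine zipper protein known to limit nuclear beta-catenin, was at 44.1, 46.6, 43.3 and 39.0 CPM in HFD and 50.8, 50.5, 49.6 and 56.9 CPM in ELS. Its log2 fold was -0.26 ± 0.07 and nearly the same, -0.24, without ELS 3 and ELS 4.

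Mme, which encodes neprilysin, the peptidase that cleaves enkephalins, substance P and amyloid beta, stood apart from Samd4a in its pattern over the 4 groups. It was at 3.10, 2.61, 3.29 and 2.58 CPM in HFD and 3.76, 4.30, 5.46 and 3.90 CPM in ELS, with no overlap and a log2 fold of -0.60 ± 0.15. Control libraries averaged 2.86 ± 0.34 CPM and ELS-HFD libraries 4.00 ± 0.435 CPM (SD, n = 4 each), so the pair of separated groups had the higher means. Prox1, a homeobox transcription factor of neuronal and oligodendrocyte lineages, averaged 7.39 ± 0.756 CPM in HFD and 10.9 ± 1.97 CPM in ELS without overlap. The Prox1 log2 fold was -0.56 ± 0.15, -0.36 without ELS 3 and ELS 4 and -0.73 without ELS 1 and ELS 2. Its control libraries ranged from 8.55 to 12.0 CPM. Smad7, the inhibitory SMAD of the TGF-beta pathway, averaged 40.3 ± 2.65 CPM in HFD and 48.2 ± 1.53 CPM in ELS without overlap (SD, n = 4 each). Of the 10 leading genes higher in ELS, 9 showed no overlap, against 1.52% of all genes, but their choice by small p in the same comparison favours this. The remaining ones of these 10, Sox10, Chat and Ngfr, belong to gene groups described further on.

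Among genes higher in HFD, the smallest p belonged to AC096809.1, an unnamed locus that was singled out after its values were seen. It averaged 3.07 ± 0.512 CPM in HFD and 1.71 ± 0.311 CPM in ELS (SD, n = 4 each), with a log2 fold of 0.83 ± 0.17. Its counts were low, 35 to 74 in HFD and 19 to 30 in ELS. Prss55, a serine protease known from the testis and sperm of mice, was at 2.93, 4.29, 3.62 and 3.94 CPM in HFD and 2.59, 2.81, 1.74 and 1.88 CPM in ELS. The groups did not overlap, the log2 fold was 0.73 ± 0.19, and it was 0.45 without ELS 3 and ELS 4 and 1.05 without ELS 1 and ELS 2. Prss55 counts were low, 34 to 102 in HFD and 26 to 34 in ELS. Rnmt, the methyltransferase that completes the messenger RNA cap, was at 46.3, 42.8, 42.8 and 39.0 CPM in HFD and 36.5, 34.4, 37.5 and 37.2 CPM in ELS. Its difference was small and even across libraries, a log2 fold of 0.23 ± 0.06 that stayed between 0.19 and 0.27 with any 1 library left out.

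Npy1r, the Y1 receptor through which neuropeptide Y acts on feeding and on anxiety-related behaviour in rodents, was also among the leading genes higher in HFD. It was at 19.4, 17.9, 23.4 and 22.6 CPM in HFD and 14.3, 15.9, 17.0 and 14.3 CPM in ELS. No ELS library reached the lowest HFD library, and the log2 fold was 0.44 ± 0.13, 0.45 without ELS 3 and ELS 4 and 0.42 without ELS 1 and ELS 2. Control libraries, at 15.9, 21.1, 14.0 and 19.3 CPM, spanned both groups, and ELS-HFD libraries lay between 19.0 and 23.9 CPM. Lonrf1, a RING finger protein with a LON domain, was at 17.8, 20.1, 21.8 and 24.6 CPM in HFD and 15.0, 18.8, 15.8 and 14.8 CPM in ELS, with 1 ELS library inside the HFD range. Its ELS-HFD mean of 22.5 ± 1.53 CPM was near that of HFD, 21.1 ± 2.83 CPM, and its control mean of 16.3 ± 1.84 CPM near that of ELS, 16.1 ± 1.87 CPM (SD, n = 4 each). Zkscan5, a zinc finger transcription factor, was at 21.6, 20.9, 20.4 and 20.5 CPM in HFD and 18.1, 17.0, 18.5 and 17.6 CPM in ELS, a log2 fold of 0.22 ± 0.07. Gdap1, a mitochondrial outer membrane protein involved in fission, averaged 95.3 ± 6.70 CPM in HFD and 80.5 ± 5.53 CPM in ELS without overlap. Tbc1d32, a protein needed for cilia and hedgehog signalling, averaged 5.54 ± 0.507 and 4.29 ± 0.363 CPM, also without overlap (SD, n = 4 each). Ube2e1, a ubiquitin-conjugating enzyme, and Ccdc127 overlapped between the groups, with log2 folds of 0.20 ± 0.07 and 0.21 ± 0.07. Of the 9 leading genes higher in HFD that are reported, 6 showed no overlap, against 0.852% of all genes, again favoured by their choice. These 9 and the 10 leading genes higher in ELS kept their direction in every fit that left out 1 library and in the fits without ELS 1 and ELS 2 or without ELS 3 and ELS 4.

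**Figure D2:**
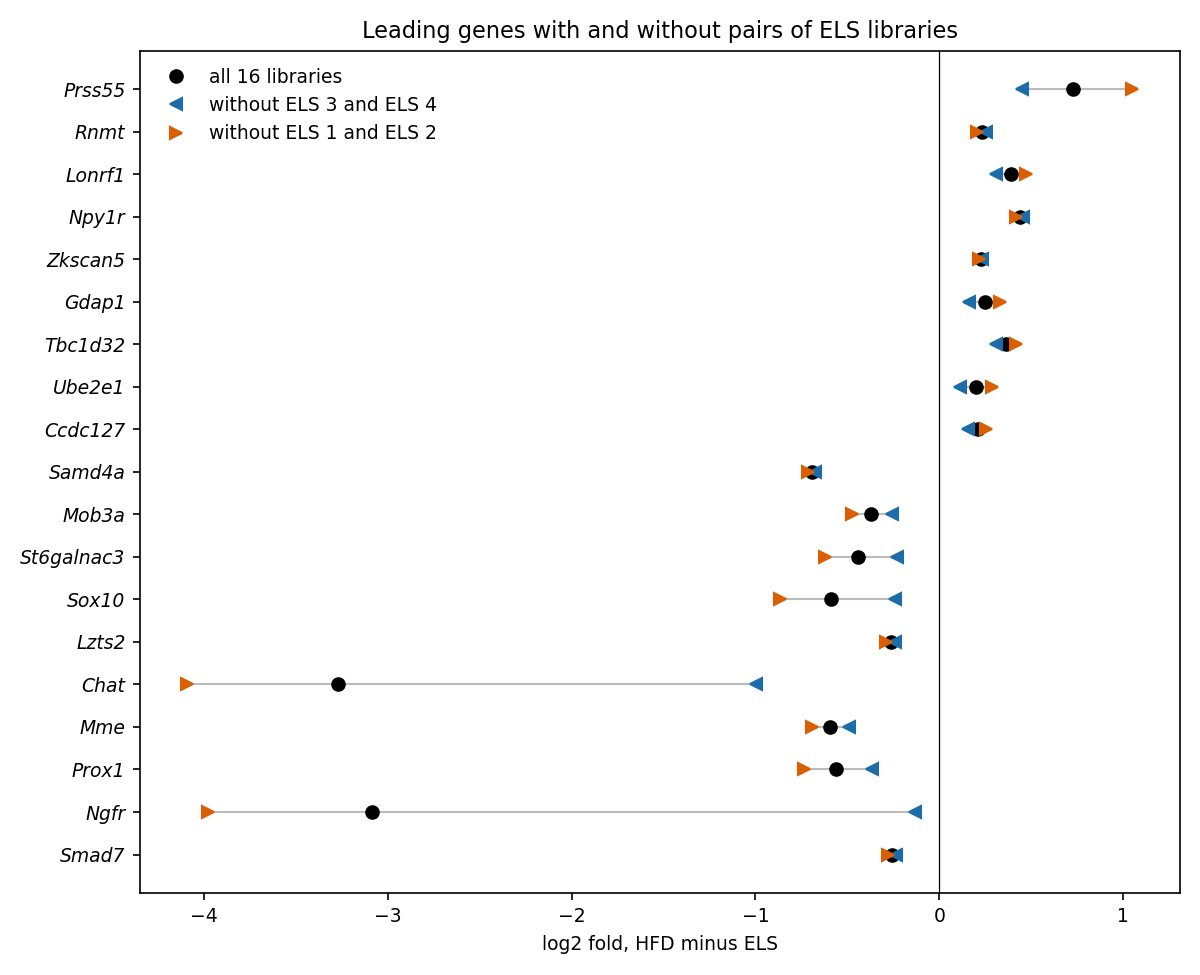
Log2 fold, HFD minus ELS (x axis), of 9 leading genes higher in HFD and 10 higher in ELS (y axis). Black points use all 16 libraries, left-pointing triangles leave out ELS 3 and ELS 4, and right-pointing triangles leave out ELS 1 and ELS 2. Samd4a moved only from -0.68 to -0.71, whereas Chat moved from -1.0 to -4.09 and Ngfr from -0.13 to -3.97.

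Genes were next read in 36 lists of cell type markers, regions and pathways, written with earlier results of these data known. No member of a list passed the threshold, and some genes belong to more than 1 list. List medians ran from -2.30 to 0.115, against -0.0022 for all genes, and those farthest from it were all on the ELS side. The basal forebrain cholinergic, myelin and striatal medium spiny neuron lists had medians of -2.30, -0.65 and -0.63, and none of their 10, 26 and 19 tested members was higher in HFD, against 49.1% of all genes. These 3 medians became -0.31, -0.01 and -0.21 without ELS 3 and ELS 4, and -2.98, -1.07 and -0.83 without ELS 1 and ELS 2. On the HFD side, the mitochondrially encoded, stress peptide and cholesterol biosynthesis lists led with medians of 0.115, 0.11 and 0.10. These were 0.08, 0.01 and 0.03 without ELS 3 and ELS 4, and 0.12, 0.19 and 0.18 without ELS 1 and ELS 2.

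**Figure D3:**
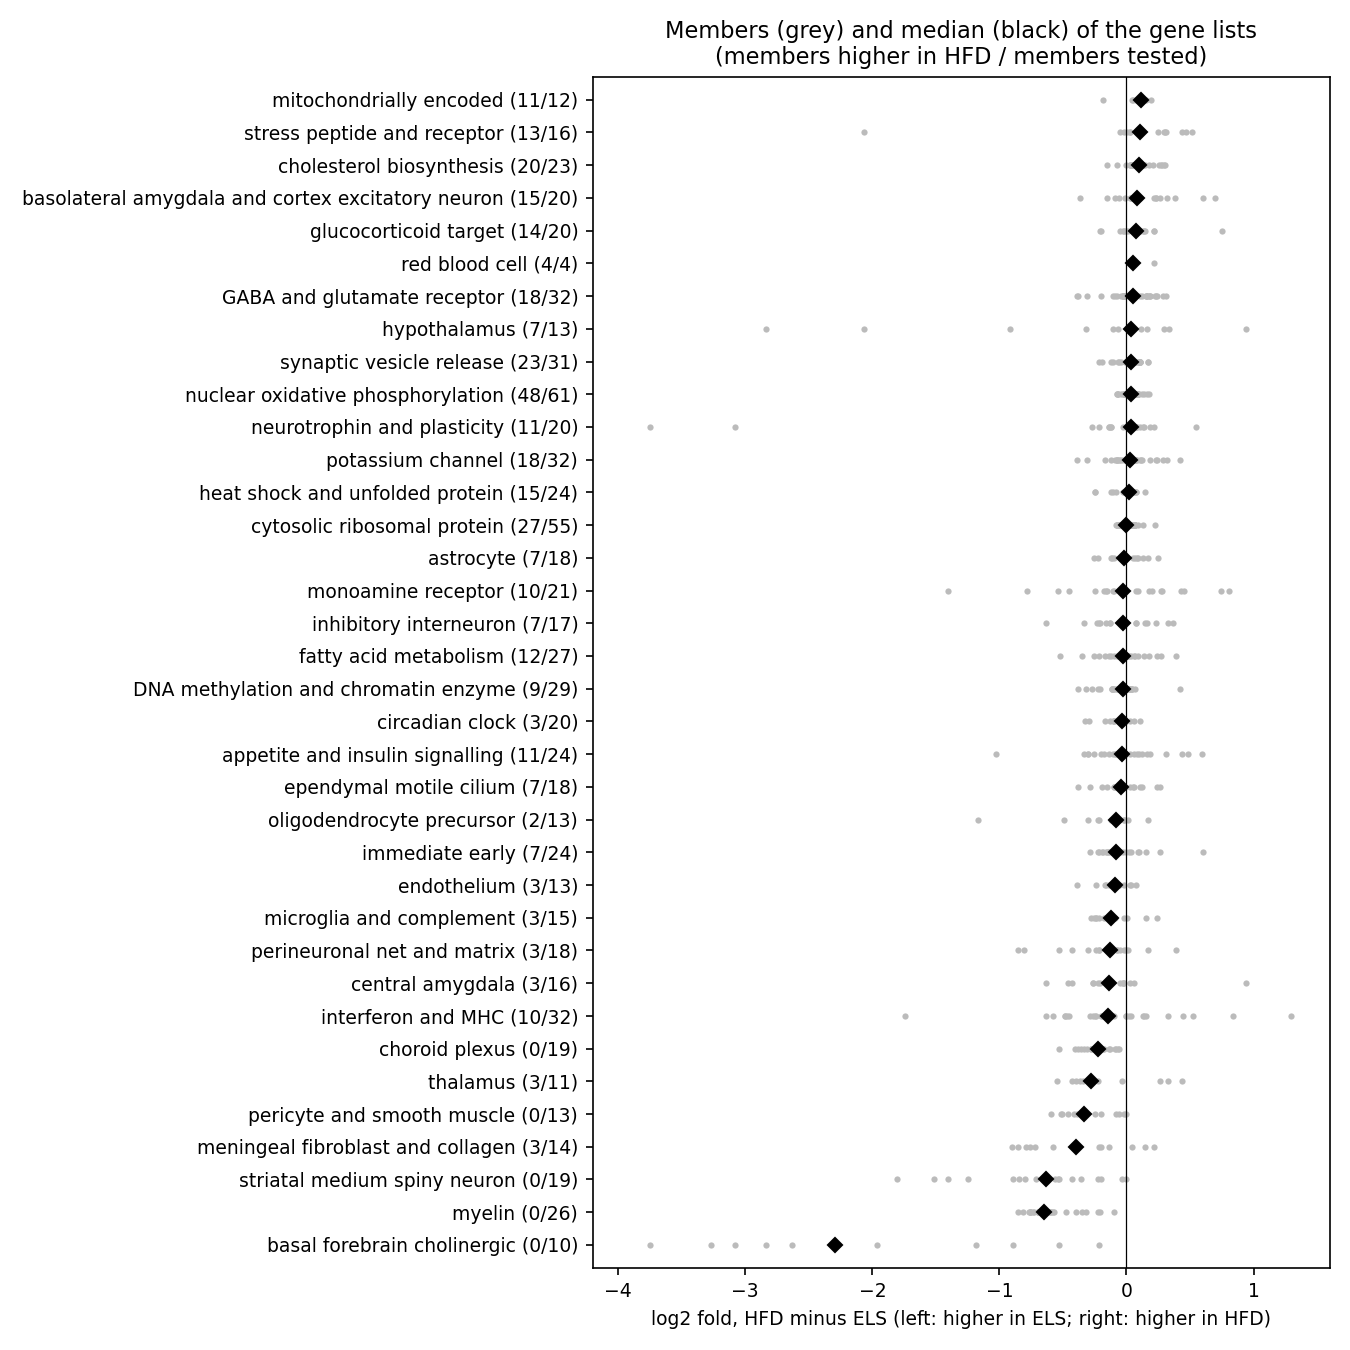
Log2 fold, HFD minus ELS (x axis), of every tested member (grey points) and the median (black diamond) of the 36 gene lists (y axis), with the members higher in HFD and the members tested in brackets. Basal forebrain cholinergic, myelin and striatal lists lie farthest to the left, at medians of -2.30, -0.65 and -0.63, and the largest median to the right is 0.115.

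All 26 tested myelin genes had the higher fitted level in ELS, and 19 of them had an unadjusted edgeR p under 0.05, against 2.74% of all genes in that direction. Sox10, the transcription factor that sets oligodendrocyte identity and drives myelin genes, led the list. It was at 52.3, 55.0, 59.3 and 56.2 CPM in HFD and 62.2, 68.4, 101 and 104 CPM in ELS. All ELS libraries lay above all HFD libraries, but ELS 3 and ELS 4 stood far above the other pair, and the log2 fold of -0.59 ± 0.15 was -0.24 without them. Sox10 was the only 1 of the 26 members without overlap, while all ELS libraries lay above all HFD libraries for 1.52% of all genes.

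SOX proteins are known to bind the words AACAAT and ACAAAG, and the 250 bases upstream of the transcription start are shown for 2 members that hold a match, capitals marking these words or their reverse complements on either strand. The sequences are from RefSeq, build GRCr8, in the direction of the gene. A match of AACAAT can overlap one of its reverse complement.
Hapln2 (chr2:175794439-175794688, minus strand): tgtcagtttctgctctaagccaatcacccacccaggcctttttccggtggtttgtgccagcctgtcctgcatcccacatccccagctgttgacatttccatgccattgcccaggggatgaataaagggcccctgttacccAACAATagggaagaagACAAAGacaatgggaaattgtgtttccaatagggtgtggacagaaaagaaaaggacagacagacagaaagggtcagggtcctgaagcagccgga
Aspa (chr10:58439038-58439287, minus strand): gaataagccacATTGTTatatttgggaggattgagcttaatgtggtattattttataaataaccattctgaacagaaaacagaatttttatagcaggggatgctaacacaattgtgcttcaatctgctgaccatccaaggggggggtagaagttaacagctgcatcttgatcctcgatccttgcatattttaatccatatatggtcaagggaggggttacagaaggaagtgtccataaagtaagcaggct
Of 3 members read in full, these and Mbp, Mbp held no match in this window. At least 1 of the words stood in 24.2% of 27457 RefSeq promoters of this length, AACAAT in 10.3% and ACAAAG in 16%. Promoters were matched by symbol for 17 of the 26 myelin members, 65.4%, and 7 of the 17 held a match, too few promoters to compare the list with that background.

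Hapln2, a link protein of the matrix at nodes of Ranvier, was at 31.0, 22.8, 23.0 and 21.7 CPM in HFD and 28.7, 26.0, 57.4 and 65.0 CPM in ELS. Aspa, the oligodendrocyte enzyme that releases acetate from N-acetylaspartate, averaged 6.5 ± 2.05 CPM in HFD and 10.0 ± 1.70 CPM in ELS (SD, n = 4 each). The most abundant member, Mbp, which encodes the basic protein that compacts the sheath, was at 3323, 2792, 2896 and 2587 CPM in HFD and 2957, 2774, 7521 and 5964 CPM in ELS. For Hapln2 and Mbp alike, ELS 1 and ELS 2 lay within the HFD range while ELS 3 and ELS 4 lay far above it. The Mbp log2 fold was -0.73 ± 0.30 over all libraries and 0.00 without ELS 3 and ELS 4, and that of Hapln2 moved from -0.85 ± 0.27 to -0.17. Control libraries held 2999 to 4163 CPM of Mbp, above 3 of the 4 HFD libraries. As a list, myelin stood at 0.977 and 0.804 in ELS 3 and ELS 4, at -0.146 and -0.278 in ELS 1 and ELS 2, and between -0.247 and 0.077 in the HFD libraries. The fit without ELS 1 and ELS 2 keeps the ELS pair high in myelin genes. In that fit 18 of the 26 members passed edgeR's adjusted threshold of 0.05, against 1.2% of all genes. Its choice of libraries by these same levels favours the count, which is therefore no separate support for a difference between the groups.

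Markers of earlier oligodendrocyte stages were more mixed, with 11 of 13 tested precursor genes higher in ELS and a median of -0.08. Gpr17, a receptor of cells committed to becoming oligodendrocytes, was at 14.2, 15.0, 13.7 and 16.5 CPM in HFD and 17.7, 17.9, 18.6 and 19.1 CPM in ELS. Its ELS libraries were close together and all above HFD, with a log2 fold of -0.30 ± 0.12 that was -0.27 without ELS 3 and ELS 4. Enpp6, a choline phosphodiesterase of newly forming oligodendrocytes, averaged 2.32 ± 0.67 CPM in HFD and 5.13 ± 3.15 CPM in ELS (SD, n = 4 each), and its log2 fold moved from -1.17 ± 0.39 to -0.15 without ELS 3 and ELS 4. In the matrix list, 15 of 18 genes were higher in ELS, with a median of -0.13 that was -0.04 without ELS 4. Adamts4, a protease of the matrix proteoglycans that oligodendrocytes also make, averaged 18.8 ± 3.05 CPM in HFD and 32.8 ± 12.8 CPM in ELS, and its log2 fold moved from -0.81 ± 0.25 to -0.23 without ELS 3 and ELS 4. Pcsk6, a proprotein convertase, averaged 25.0 ± 1.24 CPM in HFD and 29.4 ± 1.31 CPM in ELS without overlap (SD, n = 4 each). The Pcsk6 log2 fold of -0.24 ± 0.07 was -0.26 without ELS 3 and ELS 4.

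Cholinergic neuron genes held the largest log2 folds on the ELS side among the 36 lists. All 10 members were higher in ELS and 7 had an unadjusted edgeR p under 0.05, against 2.74% of all genes. Chat, the enzyme that makes acetylcholine, was at 0.603, 0.799, 0.460 and 0.748 CPM in HFD and 1.73, 0.909, 16.8 and 6.07 CPM in ELS. Ngfr, the p75 neurotrophin receptor carried by basal forebrain cholinergic neurons, was at 1.72, 1.01, 1.38 and 1.16 CPM in HFD and 1.57, 1.24, 28.5 and 12.3 CPM in ELS. ELS 3 and ELS 4 were far above all others for both genes, while ELS 1 and ELS 2 were above the HFD range for Chat and inside it for Ngfr. The log2 fold of Chat moved from -3.27 ± 0.84 to -1.0 without ELS 3 and ELS 4, and that of Ngfr from -3.08 ± 0.81 to -0.13. With the letter as a covariate, Chat was at -2.12, Ngfr at -1.99 and the median of the cholinergic list at -1.58.

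Slc18a3, the vesicular acetylcholine transporter, was at 14.1 and 6.22 CPM in ELS 3 and ELS 4 and at 0.658 to 1.26 CPM in the other 6 libraries. Slc18a3 lies within the Chat gene, so the counting may have split reads between them and both values are uncertain. Lhx8, the LIM homeobox gene needed for cholinergic fate, averaged 0.726 ± 0.24 CPM in HFD and 5.13 ± 5.81 CPM in ELS. Ache, which encodes acetylcholinesterase and is made by many neurons, averaged 61.9 ± 9.06 CPM in HFD and 72.0 ± 9.38 CPM in ELS with overlap (SD, n = 4 each). Control libraries varied as well, from 0.164 to 2.96 CPM for Chat. The list level was 2.56 in ELS 3, 1.65 in ELS 4 and at most -0.175 in the other 6 libraries.

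**Figure D4:**
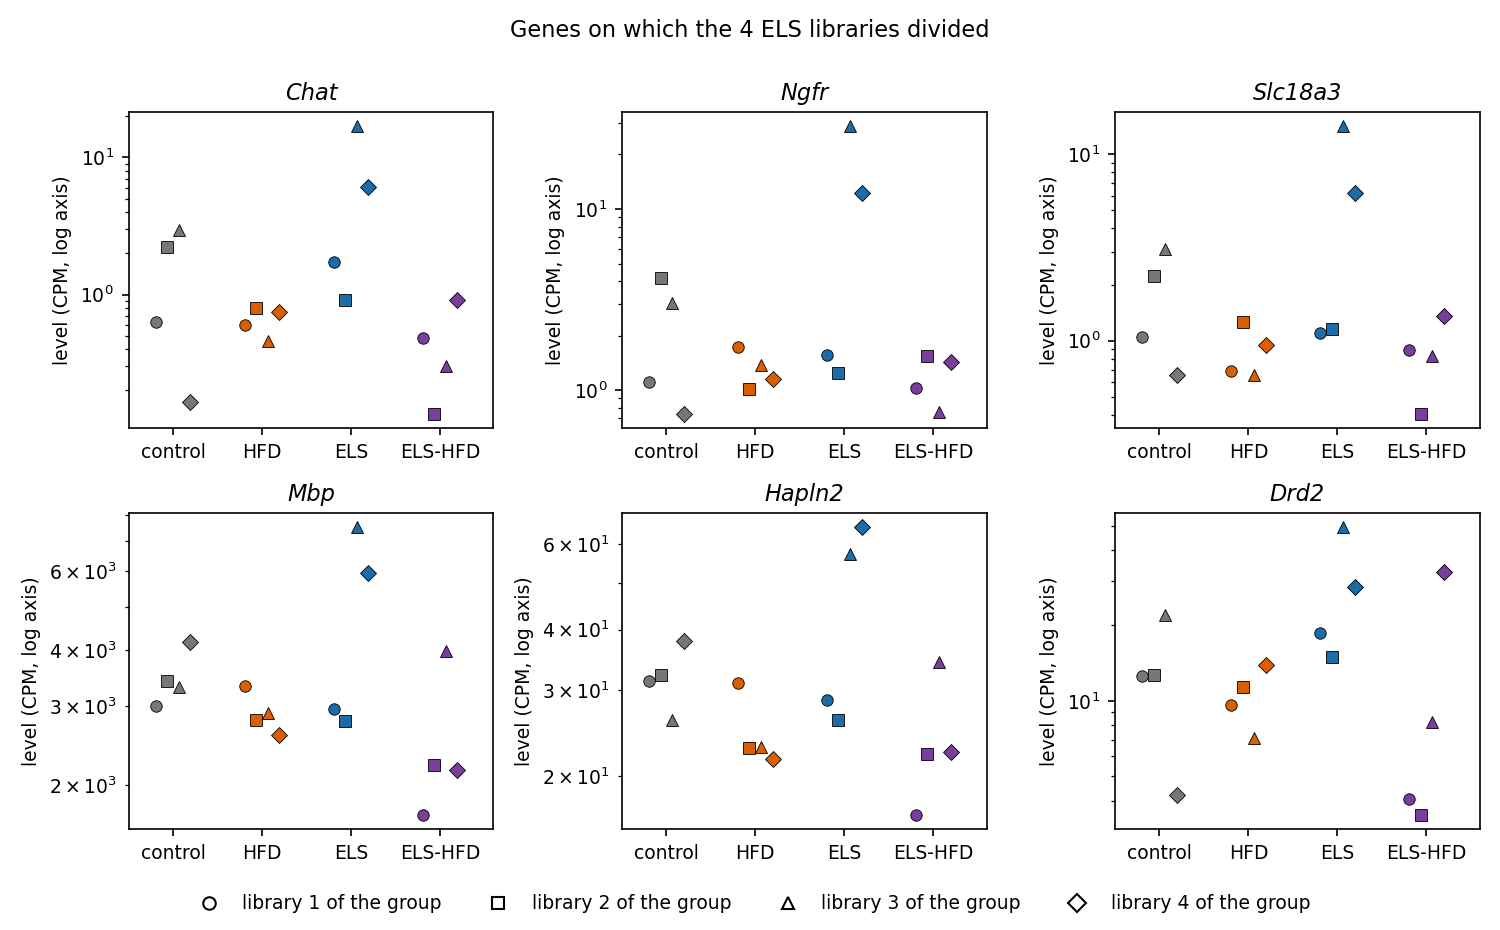
Levels in CPM (y axis, log scale) of 6 genes in each of the 16 libraries by group (x axis), with symbols for the library number. ELS 3 (triangle) and ELS 4 (diamond) stand above the other ELS libraries in every panel. For Chat they reach 16.8 and 6.07 CPM and for Mbp 7521 and 5964 CPM.

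Markers of striatal medium spiny neurons were higher in ELS for all 19 tested members, 4 of them with an unadjusted edgeR p under 0.05, against 2.74% of all genes, and 4 without overlap, against 1.52%. Drd2, the dopamine receptor of the indirect pathway, was at 9.66, 11.3, 7.10 and 13.9 CPM in HFD and 18.6, 15.0, 49.2 and 28.3 CPM in ELS. Penk, the precursor of the enkephalins and a marker shared by striatal and central amygdala neurons, was at 422, 467, 309 and 434 CPM in HFD and 651, 512, 804 and 559 CPM in ELS. For these 2 genes ELS 1 and ELS 2 also lay above all HFD libraries. The log2 fold of Drd2 was -1.40 ± 0.62, and -0.69 without ELS 3 and ELS 4, and that of Penk was -0.63 ± 0.58, and -0.52 without them. With the letter as a covariate, Drd2 was at -0.68, Penk at -0.11 and the striatal median at -0.31. Penk ranged from 73.7 to 755 CPM among controls, wider than the gap between HFD and ELS. Scn4b, a sodium channel beta subunit of striatal neurons, averaged 11.1 ± 2.57 CPM in HFD and 38.7 ± 35.6 CPM in ELS (SD, n = 4 each), and its log2 fold moved from -1.81 ± 0.72 to -0.29.

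Of 16 central amygdala markers, 13 were higher in ELS, with a median of -0.14. With the letter as a covariate the list turned, to 10 of 16 higher in HFD and a median of 0.03. Cartpt, the CART peptide precursor that acts on feeding and stress responses, had the opposite sign. It was at 18.0, 14.0, 21.8 and 13.3 CPM in HFD and 9.09, 13.7, 5.27 and 7.01 CPM in ELS, with 1 ELS library inside the HFD range. The Cartpt log2 fold was 0.94 ± 0.39, 0.54 without ELS 3 and ELS 4 and 1.46 without ELS 1 and ELS 2. Calcrl, the receptor subunit for CGRP and adrenomedullin, averaged 23.3 ± 2.70 CPM in HFD and 28.0 ± 2.44 CPM in ELS. Meis2, a transcription factor of striatum-like neurons, averaged 117 ± 13.4 CPM in HFD and 141 ± 16.1 CPM in ELS (SD, n = 4 each). Lef1, a nuclear effector of Wnt signalling on the thalamus list, was at 3.79, 4.08, 4.14 and 5.37 CPM in HFD and 6.43, 6.61, 6.23 and 6.15 CPM in ELS. Its ELS libraries were close together and all lay above HFD, and the log2 fold of -0.55 ± 0.15 was -0.60 without ELS 3 and ELS 4. Tcf7l2, a Wnt effector abundant in thalamus, averaged 7.93 ± 1.26 CPM in HFD and 10.3 ± 4.45 CPM in ELS, and its log2 fold turned from -0.40 ± 0.23 to 0.22 without ELS 3 and ELS 4.

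Vessel-associated genes were higher in ELS for all 13 tested pericyte and smooth muscle markers, with a median of -0.34 and 2 unadjusted edgeR p-values under 0.05, against 2.74% of all genes. The median was -0.16 without ELS 4 and -0.17 with the letter as a covariate. Kcnj8, the potassium channel subunit of pericytes, was at 2.15, 2.40, 1.91 and 2.38 CPM in HFD and 2.90, 3.31, 3.28 and 3.11 CPM in ELS. It did not overlap, and the log2 fold was -0.51 ± 0.19 over all libraries and -0.50 without ELS 3 and ELS 4. Vtn, which encodes vitronectin and is made by pericytes in the brain, was at 12.6, 13.3, 11.9 and 9.86 CPM in HFD and 12.9, 15.9, 18.0 and 21.5 CPM in ELS, with 1 ELS library inside the HFD range. The Vtn log2 fold was -0.52 ± 0.15, and -0.28 without ELS 3 and ELS 4. Cdh5, the cadherin of endothelial junctions, averaged 8.73 ± 1.08 CPM in HFD and 10.3 ± 1.19 CPM in ELS (SD, n = 4 each), and 10 of 13 endothelial genes were higher in ELS, with a median of -0.09.

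Meningeal and choroid plexus genes varied more among the ELS libraries than between the groups. Col1a1, the fibrillar collagen of meningeal fibroblasts, was at 6.64, 3.32, 3.55 and 3.06 CPM in HFD and 4.70, 2.40, 8.23 and 15.0 CPM in ELS. Its log2 fold was -0.90 ± 0.44 and turned to 0.18 without ELS 3 and ELS 4, and the median of the meningeal list turned likewise from -0.40 to 0.37. Bgn, a small proteoglycan of connective tissue, averaged 13.5 ± 3.14 CPM in HFD and 17.8 ± 7.04 CPM in ELS (SD, n = 4 each), and its log2 fold turned from -0.41 ± 0.24 to 0.17. Ttr, which encodes transthyretin, the main secreted protein of the choroid plexus, was at 443 and 6.86 CPM in ELS 1 and ELS 2 and at 12225 and 8153 CPM in ELS 3 and ELS 4. The HFD libraries, at 6793, 1541, 4653 and 3574 CPM, lay between these pairs. The log2 fold of Ttr was -0.33 ± 1.5, and the median of the choroid list turned from -0.22 to 4.19 without ELS 3 and ELS 4 and to 0.23 with the letter as a covariate. ELS 3 and ELS 4 were thus the highest of the 8 libraries for the myelin, cholinergic, striatal, meningeal and choroid lists at once, and the part of these lists in one another's differences was not tested.

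**Figure D5:**
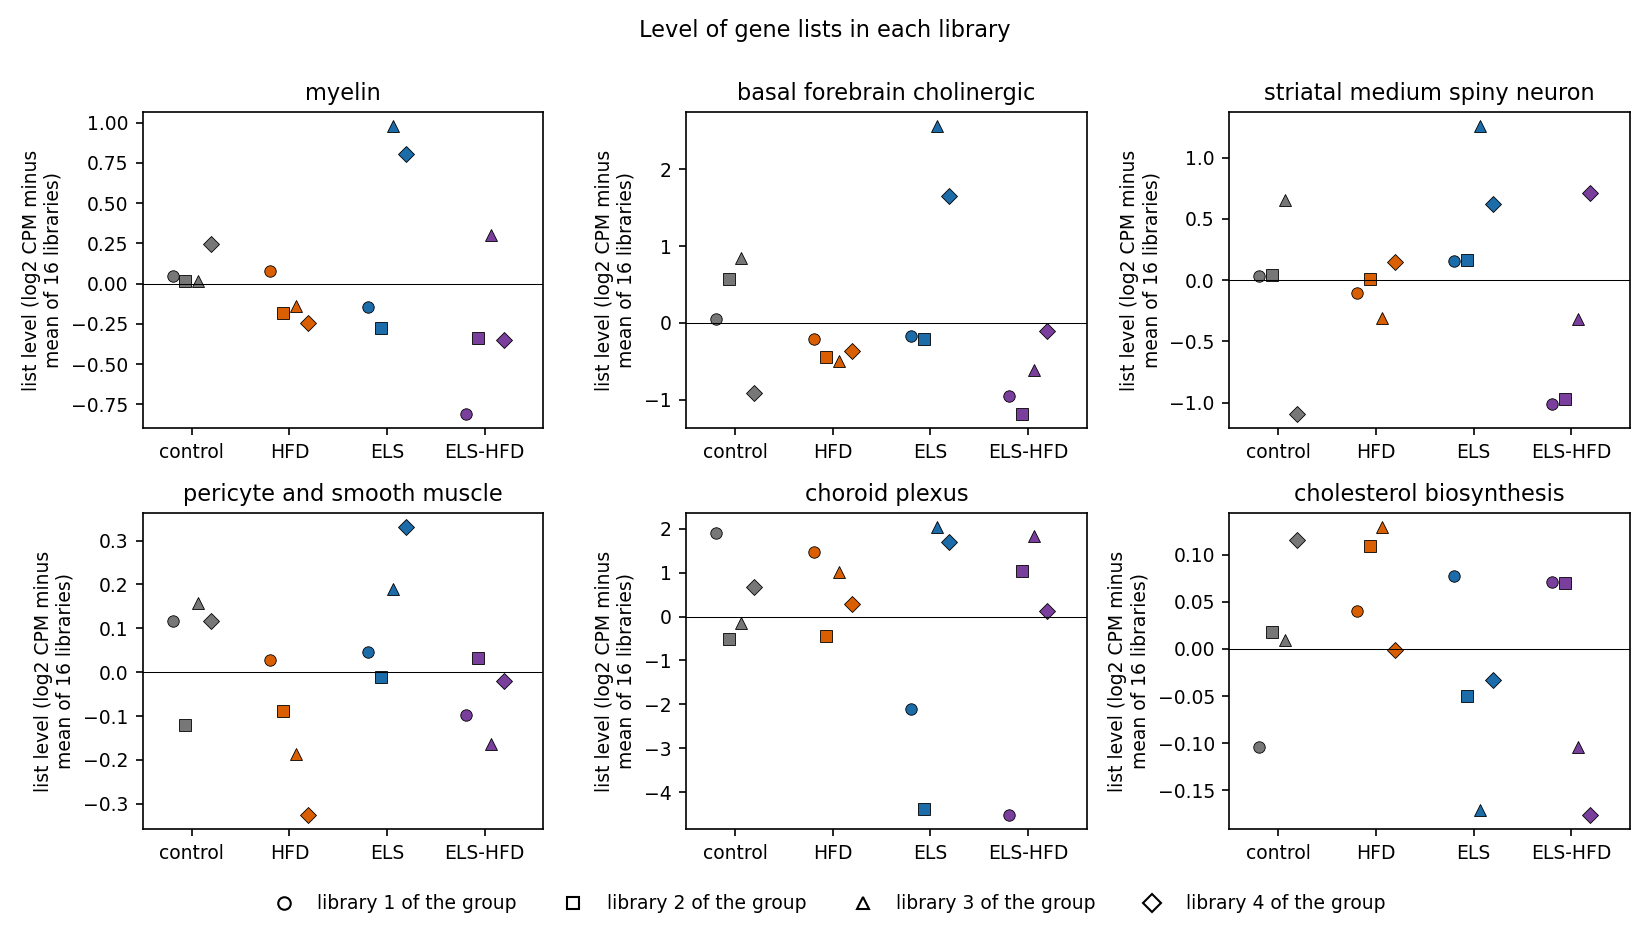
Level of 6 gene lists in each of the 16 libraries (y axis, log2 CPM relative to each gene's mean of all 16 libraries, averaged over members) by group (x axis), with symbols for the library number. ELS 3 and ELS 4 are the highest ELS libraries for the first 5 lists, at 0.977 and 0.804 for myelin, while ELS 1 and ELS 2 are at -2.10 and -4.38 for choroid plexus. Cholesterol biosynthesis spans a much narrower range.

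On the HFD side, most genes of sterol synthesis had small positive log2 folds. Of 23 tested cholesterol biosynthesis genes, 20 were higher in HFD, against 49.1% of all genes, 4 of them with an unadjusted edgeR p under 0.05 against 1.15%, and none passed. The median was 0.10, 0.03 without ELS 3 and ELS 4 and 0.18 without ELS 1 and ELS 2. Idi1, the isomerase that forms dimethylallyl diphosphate, was at 43.5, 41.0, 41.6 and 32.9 CPM in HFD and 30.8, 27.3, 35.9 and 34.9 CPM in ELS, a log2 fold of 0.30 ± 0.12. Stard4, a carrier of cholesterol between membranes, was at 11.4, 12.9, 12.6 and 11.7 CPM in HFD and 11.8, 8.84, 9.19 and 10.9 CPM in ELS. Hsd17b7, which reduces a sterol intermediate, was at 14.1, 13.0, 11.0 and 12.3 CPM in HFD and 10.9, 10.5, 8.42 and 11.8 CPM in ELS. The groups overlapped for all 3 genes. Hmgcs1, the synthase that makes HMG-CoA for the sterol pathway, averaged 314 ± 12.4 CPM in HFD and 284 ± 36.9 CPM in ELS (SD, n = 4 each), with a log2 fold of 0.15 ± 0.11 that was -0.00 without ELS 3 and ELS 4. The list level overlapped too, at -0.001 to 0.129 in HFD and -0.171 to 0.077 in ELS.

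Fatty acid genes showed no shared direction, with 12 of 27 higher in HFD and a median of -0.03. Fabp5, a fatty acid binding protein of neurons and glia, was at 50.8, 47.2, 49.3 and 46.2 CPM in HFD and 41.9, 39.2, 45.2 and 37.8 CPM in ELS without overlap, a log2 fold of 0.24 ± 0.09. Controls spanned 40.0 to 54.2 CPM and so covered most of both ranges. Scd, the desaturase that makes oleate, averaged 25.4 ± 1.6 CPM in HFD and 21.1 ± 1.48 CPM in ELS (SD, n = 4 each), a log2 fold of 0.27 ± 0.12. Of 61 nuclear genes for respiratory chain subunits, 48 were higher in HFD, with a median of 0.04, and 35 of 61, with a median of 0.01, without ELS 3 and ELS 4. Ndufb3, a subunit of complex I, averaged 44.7 ± 2.01 CPM in HFD and 40.6 ± 1.47 CPM in ELS. Of 12 mitochondrially encoded genes, 11 were higher in HFD. The exception, Mt-cyb of complex III, averaged 13328 ± 1830 CPM in HFD and 15134 ± 1108 CPM in ELS (SD, n = 4 each). Cytosolic ribosomal protein genes were split, 27 of 55 higher in HFD with a median of -0.0017, and Rps28 had the smallest p, at 30.4 ± 2.81 CPM in HFD and 25.9 ± 1.78 CPM in ELS without overlap. Fabp5, Mt-cyb and ribosomal protein genes have near copies elsewhere in the genome, so their values are uncertain.

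Positive log2 folds were also in the majority among stress-related genes, 13 of 16 for stress peptides and their receptors and 14 of 20 for glucocorticoid targets, with medians of 0.11 and 0.08. The stress list fell to 8 of 16 higher in HFD and a median of 0.01 without ELS 3 and ELS 4. Beside Npy1r, the stress list held Oxtr, the oxytocin receptor, at 2.96 ± 0.437 CPM in HFD and 2.08 ± 0.66 CPM in ELS, and Hsd11b1, the enzyme that regenerates active corticosterone, at 45.7 ± 4.25 and 38.6 ± 4.96 CPM (SD, n = 4 each). Oxtr had a log2 fold of 0.51 ± 0.28 and Hsd11b1 one of 0.25 ± 0.14, and these were 0.16 and 0.09 without ELS 3 and ELS 4. Zbtb16, a transcription factor gene induced by glucocorticoids, was at 11.7, 10.3, 16.4 and 21.0 CPM in HFD and 7.60, 7.77, 6.94 and 12.9 CPM in ELS, with ELS 4 inside the HFD range. The Zbtb16 log2 fold was 0.75 ± 0.30, and 0.94 without ELS 3 and ELS 4. Tsc22d3, the leucine zipper gene also called GILZ and a direct glucocorticoid target, averaged 73.1 ± 13.3 CPM in HFD and 63.0 ± 15.2 CPM in ELS, a log2 fold of 0.21 ± 0.20 that was -0.00 without ELS 1 and ELS 2. The median of the glucocorticoid list also turned, to -0.11 without those libraries, and was 0.42 without ELS 3 and ELS 4. On the appetite list, 11 of 24 genes were higher in HFD. Npy5r, the Y5 receptor for neuropeptide Y, had the sign opposite to Npy1r, at 5.45 ± 0.329 CPM in HFD and 6.24 ± 0.58 CPM in ELS. Its groups all but touched, with a highest HFD value of 5.776 CPM and a lowest ELS value of 5.784 CPM. The Npy5r log2 fold was only -0.20 ± 0.14, and -0.12 without ELS 4.

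Receptor and synapse lists had medians near that of all genes. Of 31 synaptic vesicle genes 23 were higher in HFD, with a median of 0.04 that was -0.12 without ELS 3 and ELS 4. The most abundant of them, Snap25, a SNARE protein of vesicle fusion, averaged 1777 ± 88.3 CPM in HFD and 1662 ± 139 CPM in ELS (SD, n = 4 each). Excitatory neuron markers were higher in HFD for 15 of 20 genes, with a median of 0.09 and 0.01 without ELS 3 and ELS 4. Among GABA and glutamate receptors, 18 of 32 were higher in HFD. Gabra2, the alpha-2 subunit of the GABA-A receptor, averaged 164 ± 8.60 and 144 ± 19.0 CPM in HFD and ELS, and Grm3, a metabotropic glutamate receptor of neurons and astrocytes, 57.6 ± 3.42 and 71.3 ± 11.0 CPM (SD, n = 4 each). Of the monoamine receptors, Htr1f, a serotonin receptor, averaged 2.13 ± 0.258 CPM in HFD and 1.56 ± 0.168 CPM in ELS. Its groups were barely apart, with a lowest HFD value of 1.77 CPM and a highest ELS value of 1.74 CPM. Htr1f counts were low, 26 to 51 in HFD and 18 to 23 in ELS. Drd5, a dopamine receptor of the D1 class, averaged 2.12 ± 0.946 and 1.21 ± 0.384 CPM with overlap.

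Of 15 microglial genes 12 were higher in ELS, with a median of -0.12. Cx3cr1, the fractalkine receptor of microglia, was at 24.7, 21.7, 21.6 and 23.1 CPM in HFD and 25.9, 29.9, 26.5 and 26.2 CPM in ELS. Its groups did not overlap, and the log2 fold of -0.26 ± 0.09 was -0.31 without ELS 3 and ELS 4. Trem2, a lipid-sensing receptor of microglia, averaged 7.87 ± 0.741 CPM in HFD and 9.56 ± 2.05 CPM in ELS (SD, n = 4 each). Of 29 genes for DNA methylation and chromatin enzymes, 20 were higher in ELS, with a median of -0.03. Tet3, which oxidises methylated cytosine, was at 12.0, 13.1, 13.4 and 16.1 CPM in HFD and 16.2, 16.5, 15.2 and 20.2 CPM in ELS, with 1 ELS library inside the HFD range. Hdac9, a class IIa histone deacetylase, was at 37.6, 37.5, 40.5 and 33.8 CPM in HFD and 26.7, 32.9, 20.0 and 32.0 CPM in ELS. Every HFD value of Hdac9 exceeded every ELS value, with a log2 fold of 0.42 ± 0.16 and a control range of 28.3 to 32.6 CPM. Clock genes were higher in ELS for 17 of 20, by a median of only -0.04, and Bhlhe41, a repressor of the clock, averaged 28.1 ± 3.50 CPM in HFD and 35.2 ± 5.99 CPM in ELS (SD, n = 4 each). Without HFD 1, the clock list had 9 of 20 higher in ELS and a median of 0.01. Immediate early genes were higher in ELS for 17 of 24, with a median of -0.08, and for 12 of 24, with a median of -0.0039, without ELS 4.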

How the data were processed

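RNA was taken from 16 brain libraries of male Wistar rats, 4 per group. Per the labels' protocols, 15 ng of RNA was reverse transcribed with barcoded oligo-dT primers, pooled and linearly amplified. Rnor_6.0, STAR, HTSeq, cutadapt, Picard and DESeq2 are named in the submitters' processing notes, without versions or roles. Strand and molecular identifiers in counting are not given in the sources used here, so a gene and its antisense partner cannot be told apart. The authors deposited raw counts for 15580 genes. The 16 columns of normalized values were not used.

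The counts were tested with edgeR 4.0.16 (quasi-likelihood F test, R 4.3.3): all 16 libraries in 1 model with a mean per group, contrast HFD minus ELS, TMM scaling (factors 0.952 to 1.0288), filterByExpr (minimum count 10, minimum total 15), and Benjamini-Hochberg adjustment over 14208 genes at a threshold of 0.05. The SE was obtained from the log2 fold and F, as |log2 fold| over the root of F. CPM levels are scaled with TMM, and list levels use a prior count of 2. Between 11.1% and 13.6% of counts in the 8 libraries fell on the 10 most abundant genes. The test was checked on simulated data. Alternatives were DESeq2 1.42.0, other scalings and filters, the 8 libraries alone, a replicate block, the letter of the library name, and leaving out libraries.

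Members and lists were chosen with earlier results of these data known. The rule for naming took, in each direction, the 10 smallest p-values, skipping accession-like symbols, the 3 members of each list with the smallest p and its most abundant member, and Samd4a, Samd4b and Mme. It named 151 genes with AC096809.1, of which 80 have values recomputed under each alternative, and lists near the background are given mainly as counts. Symbols matched for 797 of 878 list entries, and 780 were tested. Results of some genes are not reported here.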

Additional observations from a re-analysis of the deposited data

Results flagged for a closer look

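Single libraries stood apart from the other 3 of their group, by a gap too wide for 4 values under Dixon's test, in 8 of 136 groups of values examined. Chance alone gives about 1 in 20. Lzts2 reached 56.91 CPM in ELS 4, against 49.55 to 50.8 in the other ELS libraries. Hapln2 reached 31.04 CPM in HFD 1, against 21.7 to 22.95 in the other HFD libraries. Cx3cr1 reached 29.91 CPM in ELS 2, against 25.95 to 26.54. Col1a1 reached 6.638 CPM in HFD 1, against 3.061 to 3.552. Zbtb16 reached 12.94 CPM in ELS 4, against 6.941 to 7.767. The microglia and complement list stood at 0.275 in ELS 3, against -0.042 to -0.005. The inhibitory interneuron list stood at -0.114 in HFD 4, against 0.045 to 0.075. The hypothalamus list stood at -0.241 in ELS 1, against 0.203 to 0.254. The cause of these gaps was not tested.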

How the results depend on the processing

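Samd4a kept its direction in all 18 alternatives. No gene passed (0), Samd4a included, with the 8 libraries alone, with the letter covariate, without ELS 3 and ELS 4, or with any 1 library left out (0 to 0). Genes at an unadjusted p under 0.05 then numbered 301 without ELS 3, 881 without ELS 1 and 857 without ELS 2. Without ELS 1 and ELS 2, 173 genes passed, 30 higher in HFD and 143 higher in ELS, and 2407 had an unadjusted p under 0.05. That division of the ELS libraries is not in the labels and matches their levels in these same data. Samd4a was among the 173, with an edgeR adjusted p of 0.0190. The cause was not tested. Of the 80 genes recomputed, the log2 fold turned without ELS 3 and ELS 4 to 0.0038 for Mbp, 0.182 for Col1a1, 0.1661 for Bgn, 4.1886 for Ttr, 0.2157 for Tcf7l2 and -0.001 for Hmgcs1. It turned without ELS 1 and ELS 2 to 0.0077 for Samd4b and -0.0035 for Tsc22d3. Ttr also turned to 0.2143 with the letter covariate and ranged from -0.74 to 0.53 with 1 library left out.

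Same-numbered HFD and ELS libraries deviated from their group means with correlations of -0.393, 0.441, -0.003 and -0.061. These values cannot decide whether the numbers pair the samples, because litter and dam are not given. With the replicate number as a block, 1 gene passed, Samd4a with an edgeR adjusted p of 0.0352, 546 genes had an unadjusted p under 0.05, and Ttr turned to 0.1708. Total counts limit genes of a few CPM, such as Chat.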

Other observations

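Other gene groups were as follows. Astrocyte markers had a median log2 fold, HFD minus ELS, of -0.02 with 7 of 18 higher in HFD. Heat shock and unfolded protein genes had a median of 0.02 with 15 of 24 higher in HFD. Potassium channel genes had a median of 0.03 with 18 of 32 higher in HFD, and Kcnj6, the GIRK2 subunit, averaged 20.2 ± 3.69 CPM in HFD and 16.2 ± 3.54 CPM in ELS (SD, n = 4 each). Interferon and MHC genes had a median of -0.14 with 22 of 32 higher in ELS, which turned to 0.34 without ELS 3 and ELS 4. Thalamus markers had a median of -0.28 with 8 of 11 higher in ELS, and -0.13 without ELS 3 and ELS 4. Motile cilium genes of the ependyma had a median of -0.04, 1.08 without ELS 3 and ELS 4 and -0.62 without ELS 1 and ELS 2, following the choroid plexus list in direction. Neurotrophin and plasticity genes had a median of 0.04 with 11 of 20 higher in HFD, although Ngfr belongs to that list too.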
